A study of Mus musculus with 6 samples.

Results

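The promoters of 10 mouse genes for heterogeneous nuclear ribonucleoproteins (hnRNPs) were examined for trimethylation of lysine 4 on histone H3 (H3K4me3), out of 21951 protein-coding genes in the annotation. The genes were taken by symbol, and they are Hnrnpa1, Hnrnpa2b1, Hnrnpa3, Hnrnpc, Hnrnpd, Hnrnpf, Hnrnpk, Hnrnpl, Hnrnpm and Hnrnpu. Chromatin immunoprecipitation sequencing (ChIP-seq) had been done in Scid.adh.2C2, a T-cell progenitor line that arose as a pro-T tumor in CB17-Prkdc scid mice, and in 230-238, a B-cell progenitor line transformed with Abelson virus, which the study's methods call pre-B. Scid.adh.2C2 is a subclone of Scid.adh, a line from a thymic lymphoma. Each line contributed 2 H3K4me3 libraries, made with the same Millipore antibody, and 1 input library. The cells were not treated, and each line is a single established culture, so that a difference between the lists cannot be told apart from a difference between these particular lines. For each line, 1 peak list combines both ChIP libraries. It holds no value per replicate and no read count, so the depth is unknown, no error can be given for a value, and a promoter without a peak, called unmarked here, is only 1 at which the peak list as analysed here holds none. Whether reads were enriched there, weakly or strongly, and whether a peak was removed at a filtering step or is missing from the rows analysed here, was not tested.

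hnRNPs are abundant nuclear proteins that coat newly made RNA and take part in splicing, in 3′ end formation, in RNA export and in mRNA stability. Most of them bind RNA through RNA recognition motifs or KH domains, and each prefers its own short sequences. Almost all cell types express them, and in lymphocytes hnRNP L is known for its control of alternative exons of the phosphatase CD45. H3K4me3 marks the first nucleosomes of active genes, and CpG-rich promoters of broadly expressed genes usually carry a wide and high domain of it, with a depleted stretch at the transcription start site (TSS) itself.

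A gene was taken as marked where at least 1 bp of a peak fell within 2500 bp of any of its annotated TSSs. By this rule 9 of the 10 hnRNP genes were marked in Scid.adh.2C2 and the same 9 were marked in 230-238, while Hnrnpu had no peak in either list, like 48.6% of all protein-coding genes and 21.7% of those with a CpG-rich promoter. Of all protein-coding genes, 45.5% were marked in Scid.adh.2C2 and 48.2% in 230-238, and 42.2% were marked in both. Among the genes with a CpG-rich promoter, to which all 10 hnRNP genes belonged, the shares were 71.9%, 74.7% and 68.3%. The genes were chosen by name with the presence, fold enrichment, width and score of their promoter peaks in both lists already known, so these values describe them and were not tested. The limit of 2500 bp decided none of the calls, since each of the 9 marked genes had at least 4 TSSs inside a peak and the nearest peak to Hnrnpu lay 30431 bp away. The cell identity of the lists followed the labels, with 10 of 10 T cell marker genes marked in Scid.adh.2C2 against 4 of 10 in 230-238 (15.2- to 18.8-fold), and 1 of 10 B cell marker genes (Vpreb1) against 10 of 10.

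The strength of a peak is given as the fold enrichment over background that the peak caller wrote, and as the rank of the peak by this value within its own list. The lists were made separately, so a fold enrichment was compared only with other peaks of the same list. The list of Scid.adh.2C2 holds 15513 peaks with a median of 20.3-fold, and that of 230-238 holds 19604 peaks with a median of 15.4-fold. The highest peak of each marked hnRNP gene lay above the list median for 9 of 9 genes in Scid.adh.2C2, between 27.8- and 40.0-fold. In 230-238 it did so for 8 of 9, between 13.7- and 28.3-fold, and Hnrnpk was the exception. The highest peak lay in the top 25% of the list for 7 of 9 genes in Scid.adh.2C2 and for 5 of 9 in 230-238, against 44.1% and 50.4% of all marked protein-coding genes. The median over the 9 genes was 30.0-fold in Scid.adh.2C2 and 22.2-fold in 230-238. The medians over all marked protein-coding genes were 27.1- and 21.7-fold. IDR is the irreproducible discovery rate, a measure of how well a peak's rank repeats between replicates. All 9 highest peaks had the highest possible IDR score of 1000 in both lists. So did 93.6% of all peaks in Scid.adh.2C2 and 93.9% of all peaks in 230-238.

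**Figure D1:**
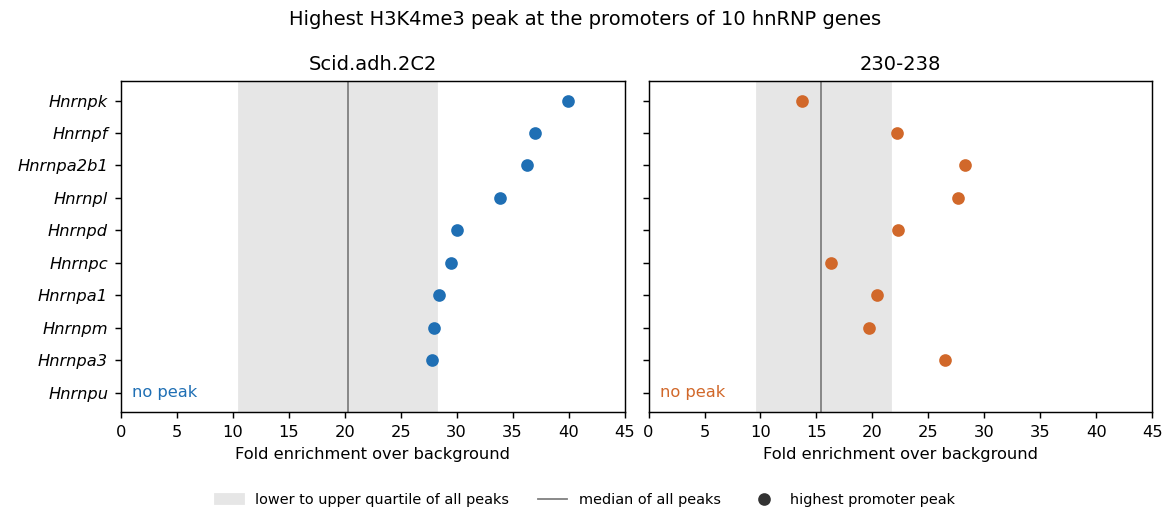
The fold enrichment of the highest promoter peak (horizontal axis) is plotted for each of the 10 hnRNP genes in Scid.adh.2C2 (left) and 230-238 (right), with the median and the quartiles of all peaks of that list. The 9 marked genes lie from 27.8- to 40.0-fold on the left and from 13.7- to 28.3-fold on the right, Hnrnpk is highest on the left and lowest on the right, and Hnrnpu has no peak in either.

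The A/B-type hnRNPs package pre-mRNA and influence the choice of splice sites. Hnrnpa1 (ENSMUSG00000046434, chr15:103240432-103246692, plus strand) lies back to back with Cbx5, which encodes a heterochromatin protein and starts 616 bp away on the opposite strand. A single peak covered all 4 TSSs of Hnrnpa1 in each line. It was 5587 bp wide, 28.4-fold enriched and ranked 3811 of 15513 in Scid.adh.2C2. In 230-238 it was 6342 bp wide, 20.4-fold enriched and ranked 5869 of 19604. Both peaks are among the widest 1% of their lists, at the top 0.458% and the top 0.724% by width. By fold they stood lower, at the top 24.6% and the top 29.9%.

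Hnrnpa2b1 (ENSMUSG00000004980, chr6:51460932-51469894, minus strand) has the same arrangement, since the heterochromatin protein gene Cbx3 starts 466 bp away on the opposite strand. In Scid.adh.2C2 a single peak of 5782 bp and 36.3-fold covered the Cbx3 start and 6 of the 11 TSSs of Hnrnpa2b1. In 230-238 this region was split into a peak of 4931 bp and 28.3-fold over Hnrnpa2b1, and a peak of 3827 bp and 24.1-fold on the Cbx3 side. Hnrnpa2b1 was the highest of the 10 genes in 230-238 and the third highest in Scid.adh.2C2, and it kept nearly the same place, with ranks 862 of 15513 and 981 of 19604.

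Hnrnpa3 (ENSMUSG00000059005, chr2:75659261-75669407, plus strand) had its highest peak upstream of the TSS in both lines. This upstream peak was 1174 bp wide, 27.8-fold enriched and ranked 4126 in Scid.adh.2C2, and it was 1181 bp wide, 26.5-fold enriched and ranked 1743 in 230-238. The peak over the TSSs and the start of the gene was wider, at 2644 and 2692 bp. Its enrichment was 26.0-fold in Scid.adh.2C2, close to the upstream peak, but 14.3-fold in 230-238, where the upstream peak stood well above it. In 230-238 there was also a small peak of 293 bp and 7.09-fold farther upstream.

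Hnrnpc encodes the C proteins, which bind uridine tracts and sort RNAs by length for export. Hnrnpc (ENSMUSG00000060373, chr14:52073377-52104028, minus strand) carried 4 separate peaks in Scid.adh.2C2 and 3 in 230-238. The peak over 9 of its 10 TSSs was 29.5-fold enriched and 1275 bp wide in Scid.adh.2C2, with rank 3260. In 230-238 the corresponding peak was 2065 bp wide and 16.3-fold enriched, with rank 9123, near the middle of the list. An upstream peak of 575 bp and 27.1-fold in Scid.adh.2C2 had a counterpart of 491 bp and 14.7-fold in 230-238. Of the 18 peaks of the hnRNP genes in Scid.adh.2C2, 2 had an IDR score under 1000, and 1 of them was the 415 bp peak at the downstream end of this domain, with a score of 588 and 6.93-fold. None of the 21 peaks in 230-238 had a score under 1000.

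Hnrnpd encodes AUF1, which binds AU-rich elements and controls mRNA decay. Hnrnpd (ENSMUSG00000000568, chr5:99955935-99978938, minus strand) starts 123 bp from the protein-coding gene 4930524J08Rik on the other strand, and the antisense RNA Gm17092 starts 938 bp from a further TSS of Hnrnpd. In Scid.adh.2C2 a single peak of 5017 bp and 30.0-fold (rank 3022) covered 8 of the 11 TSSs. In 230-238 the same 8 TSSs lay in a peak of 6186 bp and 22.3-fold (rank 4439), and a second peak of 1306 bp and 10.7-fold lay on the side of 4930524J08Rik. The place in the list was alike, at the top 19.5% and the top 22.6%.

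Hnrnpf encodes a protein that binds guanine tracts and belongs to the same subfamily as hnRNP H. Hnrnpf (ENSMUSG00000042079, chr6:117900324-117925622, plus strand) had the longest marked domain of the 10 genes in both lines, and the TSSs inside it form 3 groups spread over the gene. In Scid.adh.2C2 there were 4 peaks with a summed width of 11221 bp, and in 230-238 there were 5 with 19387 bp. The highest peak covered the middle group of TSSs in both lines, at 37.0-fold (rank 709) in Scid.adh.2C2 and at 22.2-fold (rank 4511) in 230-238. The most upstream TSSs had a peak of 22.4-fold in Scid.adh.2C2 and of 20.3-fold in 230-238, and the downstream group had 20.0- and 21.4-fold. The 3 groups were thus of similar strength in 230-238, whereas in Scid.adh.2C2 the middle group stood above the other two. The unclassified transcripts 4933440N22Rik and Gm43863 start 910 and 419 bp from Hnrnpf TSSs on the opposite strand.

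Hnrnpk encodes a KH-domain protein that binds cytosine tracts in RNA and single-stranded DNA. Hnrnpk (ENSMUSG00000021546, chr13:58391142-58403343, minus strand) shares its start region with Rmi1, a gene of the BLM dissolvasome, which begins 51 bp away on the opposite strand. Its peak was the highest of the 10 genes in Scid.adh.2C2, at 40.0-fold (rank 298), and the lowest of the 9 marked genes in 230-238, at 13.7-fold (rank 11094). The peak itself was alike in extent, with 3904 bp in Scid.adh.2C2 and 4296 bp in 230-238, and it held the same number of TSSs, 19 of 32, in each. The summits lay 76 and 98 bp downstream of the nearest TSS. The place in the list moved from the top 1.92% to the top 56.6%, which is 54.7 percentage points. A move down by at least this many points from Scid.adh.2C2 to 230-238 was seen in 0.583% of the protein-coding genes marked in both lines, which is 54 of 9261. This comparison was made after the values had been seen. Of the 32 bp words in the 5001 bp around the most upstream Hnrnpk TSS, 88.4% occur only once in the C57BL/6J reference genome, within the range of the other genes. Within 500 bp of that TSS the share was 47%, the lowest of the 10 genes. The peaks of both lines covered this window, and their summits lay 2154 and 2176 bp from the TSS. Uniqueness around the summits was not measured, and whether it bears on the move in place was not tested. In Scid.adh.2C2 a weak second peak of 825 bp and 8.64-fold, with a score of 959, followed downstream.

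Hnrnpl encodes a protein that binds CA repeats. Hnrnpl (ENSMUSG00000015165, chr7:28808541-28822266, plus strand) had 2 peaks in Scid.adh.2C2 and 3 in 230-238, and it was strong in both lists. The highest peak was 33.9-fold (rank 1450) in Scid.adh.2C2 and 27.7-fold (rank 1225) in 230-238. These peaks overlapped, and their summits lay 861 and 928 bp downstream of the same TSS, but their edges differed. In Scid.adh.2C2 the highest peak held a group of 3 TSSs, which in 230-238 lay in a separate small peak of 507 bp and 12.1-fold. The highest peak of 230-238 began and ended farther downstream and held 2 other TSSs. The 4 most upstream TSSs were covered by a peak of 31.5-fold in Scid.adh.2C2 and of 26.2-fold in 230-238, only slightly lower than the highest. The antisense RNA Gm44702 starts 393 bp from the group of 3 TSSs.

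Hnrnpm encodes a protein that binds GU-rich RNA and also takes part in splicing. Hnrnpm (ENSMUSG00000059208, chr17:33646233-33686860, minus strand) had a single peak in each line, of 2559 bp and 27.9-fold (rank 4037) in Scid.adh.2C2 and of 4027 bp and 19.7-fold (rank 6478) in 230-238. In both lines the peak covered 7 of the 14 TSSs. It began 772 and 747 bp downstream of the most upstream annotated TSS, which therefore lay outside every peak.

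**Figure D2:**
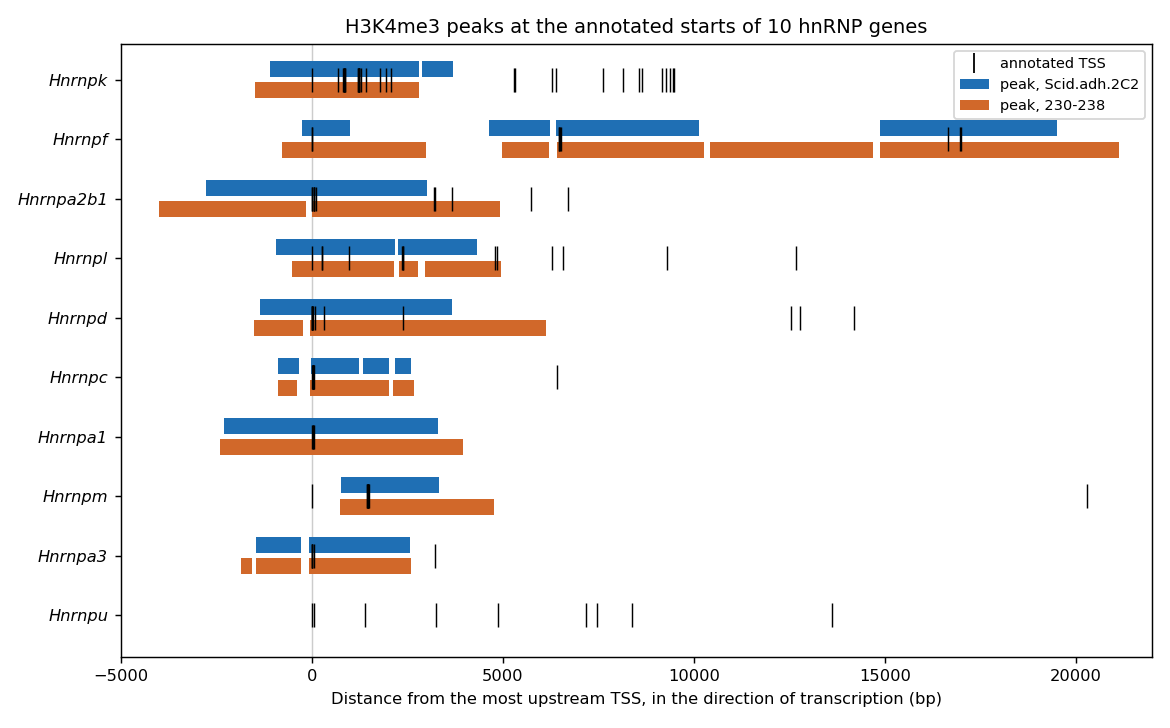
The H3K4me3 peaks within 2500 bp of a TSS of the 10 hnRNP genes are drawn as bars (Scid.adh.2C2 above, 230-238 below) against the distance in bp from the most upstream TSS, in the direction of transcription, with each annotated TSS as a tick. The summed width runs from 2559 to 11221 bp in Scid.adh.2C2 and from 3123 to 19387 bp in 230-238, Hnrnpu has no bar, and 6 TSSs farther downstream than 22000 bp are outside the plot.

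The summed width of the peaks of a gene had a median of 5017 bp in Scid.adh.2C2 and 5142 bp in 230-238, and the Spearman correlation between the lines was 0.933 over the 9 genes. For the place of the highest peak in its list this correlation was -0.0333, which rested on Hnrnpk, since without it the value was 0.381 over 8 genes. Over the 9261 protein-coding genes marked in both lines the correlations were 0.684 for the summed width and 0.277 for the place. These are descriptions, and a gene with many or widely spaced TSSs has a larger window in both lists alike. The summed width was larger in 230-238 for 7 of the 9 genes, and among all genes marked in both lines the share was 74.9%, so that the hnRNP genes did as most genes did. The exceptions were Hnrnpk, with 4729 bp in Scid.adh.2C2 and 4296 bp in 230-238, and Hnrnpl, with 5166 and 5142 bp. Of the 119 annotated TSSs of the 10 genes, 73 lay inside a peak in Scid.adh.2C2 and 78 in 230-238. Hnrnpk alone has 32 of these TSSs and the unmarked Hnrnpu has 9. The share over the TSSs of all genes was not counted.

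A short interval without a peak was found immediately upstream of a TSS in several of these domains. Counted after the values had been seen, as intervals of at most 400 bp between adjacent peaks and no more than 100 bp from a TSS, they occurred at 4 hnRNP genes in Scid.adh.2C2 (Hnrnpa3, Hnrnpc, Hnrnpf and Hnrnpl). In 230-238 they occurred at 6, namely those and Hnrnpa2b1 and Hnrnpd. Among all marked protein-coding genes, 10.7% had such an interval in Scid.adh.2C2 and 16.7% in 230-238. The intervals were 81 to 291 bp long in Scid.adh.2C2 and 117 to 346 bp long in 230-238, and each lay upstream of the TSS next to it. The intervals of Hnrnpa3, Hnrnpc, Hnrnpf and Hnrnpl recurred in both lists at nearly the same place, as at Hnrnpc, where they began 31 and 45 bp from the TSS. The summits of the peaks beside an interval thus stood on either side of the TSS next to it. Such a domain stands in the list as separate peaks, each with its own fold enrichment. At Hnrnpl the interval lay between groups of TSSs, since the peak upstream of it held 4 TSSs in each line.

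The sequences of 3 of these intervals are shown as examples of the stretches that separate the upstream from the downstream peak, namely those of the A/B-type genes and the longest in Scid.adh.2C2. They were read from GRCm38, 5′ to 3′ on the strand of the gene, and the capitals mark matches on either strand to CCAAT (the CCAAT box), TATAAA (the TATA box), GGGCGG (the GC box), CCGGAA (an ETS core), GCATGCG (part of the NRF1 site) or TGACG (part of the cAMP response element). The interval of Hnrnpa3 in Scid.adh.2C2 (chr2:75658984-75659197, plus strand, 214 bp) ends 64 bp before the TSS and has 38 CpG dinucleotides. That of Hnrnpc in Scid.adh.2C2 (chr14:52104059-52104349, minus strand, 291 bp) has 21. That of Hnrnpa2b1 in 230-238 (chr6:51469898-51470052, minus strand, 155 bp) ends 4 bp before the TSS and has 15. None of the 3 overlaps an annotated exon.
Hnrnpa3: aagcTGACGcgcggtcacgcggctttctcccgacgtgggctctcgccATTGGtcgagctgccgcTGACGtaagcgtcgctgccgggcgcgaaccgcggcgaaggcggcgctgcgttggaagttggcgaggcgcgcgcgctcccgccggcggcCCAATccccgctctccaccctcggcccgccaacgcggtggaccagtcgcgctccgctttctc
Hnrnpc: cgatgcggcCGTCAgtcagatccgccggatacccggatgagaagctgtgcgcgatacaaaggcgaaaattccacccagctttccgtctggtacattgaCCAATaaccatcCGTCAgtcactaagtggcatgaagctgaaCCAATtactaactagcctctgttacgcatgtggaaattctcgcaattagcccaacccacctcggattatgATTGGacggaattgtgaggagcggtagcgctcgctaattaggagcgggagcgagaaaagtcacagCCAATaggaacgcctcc
Hnrnpa2b1: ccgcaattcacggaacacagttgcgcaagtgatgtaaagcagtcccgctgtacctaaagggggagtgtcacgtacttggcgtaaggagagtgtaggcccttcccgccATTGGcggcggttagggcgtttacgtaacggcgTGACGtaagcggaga

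Each of these 3 held CCAAT on 1 strand or the other and TGACG, but not every such interval did. CCAAT was found in 4 of the 4 intervals in Scid.adh.2C2 and in 5 of the 6 in 230-238, all but that of Hnrnpd. TGACG was found in 3 of 4 and in 4 of 6, and it was missing at Hnrnpl in both lines and at Hnrnpd. The interval of Hnrnpd held GGGCGG and CCGGAA instead, and TATAAA was found in none of the intervals. The intervals of Hnrnpa3, Hnrnpc, Hnrnpf and Hnrnpl are nearly the same sequence in both lists, so the counts of the 2 lines are not separate. The share of such intervals with each motif over all genes was not counted, so whether these counts are high was not tested. The GC content was 72.9% for Hnrnpa3, 51.9% for Hnrnpc and 56.8% for Hnrnpa2b1.

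Hnrnpu encodes hnRNP U, or scaffold attachment factor A, which binds RNA and DNA, helps to organise nuclear chromatin and takes part in splicing. Hnrnpu (ENSMUSG00000039630, chr1:178321108-178337797, minus strand) has 9 annotated TSSs, and none of them had a peak within 2500 bp in either line. The nearest peak began 30431 bp from the most upstream TSS in Scid.adh.2C2, at chr1:178368228-178370623. It was 2396 bp wide and 16.0-fold enriched, with rank 9474. In 230-238 the nearest peak began 30552 bp away, at chr1:178368349-178370782, and was 2434 bp wide and 21.6-fold enriched, with rank 4912. These peaks overlap each other, and both had a score of 1000. The next peak lay 67329 bp away in Scid.adh.2C2 and 67381 bp away in 230-238, at the start of Efcab2, with 21.1- and 16.4-fold.

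The stretch without any peak in either list reached from chr1:177983882 to chr1:178368227, which is 384346 bp. By length it ranked 1314 of the 22604 stretches between adjacent peaks of the merged lists, in the top 5.81%. It contained the starts of 3 protein-coding genes, and all 3 have CpG-rich promoters. Cox20, which encodes an assembly factor of cytochrome c oxidase, starts 18667 bp from Hnrnpu, and Desi2, which encodes a deSUMOylating isopeptidase, starts 150380 bp away. Neither had a promoter peak in either line. Among the stretches of the genome, 130 held 3 or more unmarked CpG-rich starts. In 230-238 alone the stretch was longer, at 570874 bp, and it also contained Catspere2, which had a 14.2-fold peak in Scid.adh.2C2 and none in 230-238. On the far side Adss, which encodes an enzyme of AMP synthesis, was strongly marked in both lines, at 37.2- and 28.2-fold. Kif26b, a kinesin gene 191328 bp from Hnrnpu on the other side of Efcab2, was unmarked in both. As the stretch was defined by the lack of peaks, a start well inside it has no peak near it by definition.

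**Figure D3:**
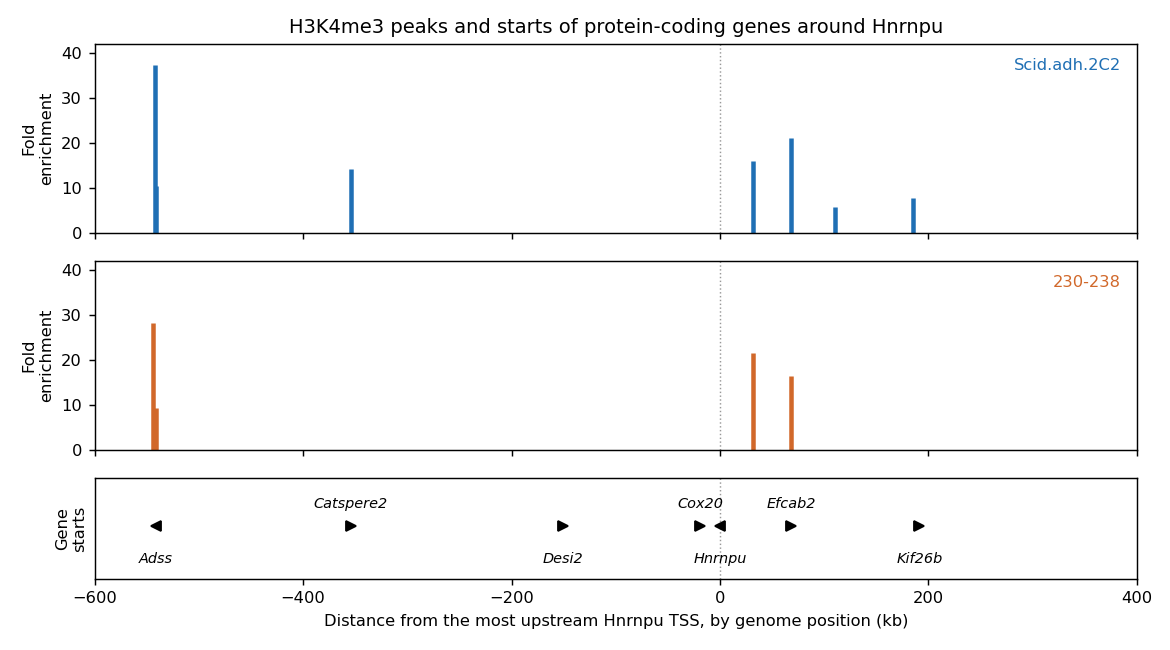
The fold enrichment of each H3K4me3 peak around Hnrnpu is drawn for Scid.adh.2C2 (top) and 230-238 (middle) against the genome distance in kb from the most upstream Hnrnpu TSS, with the starts and strands of protein-coding genes below. No peak of either line lies between the peak near Catspere2 in Scid.adh.2C2 and the peak 30431 bp to the right of Hnrnpu, a stretch of 384346 bp that holds Desi2, Cox20 and Hnrnpu.

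By base composition and uniqueness the Hnrnpu promoter lay within the range of the marked hnRNP promoters. In the 1000 bp around its most CpG-rich TSS the GC content was 64.9% and the ratio of observed to expected CpG was 1.05, with 109 CpG dinucleotides. Over the 10 hnRNP genes GC ran from 50.5% (Hnrnpa1) to 72.9% (Hnrnpd) and the CpG ratio from 0.876 (Hnrnpm) to 1.09 (Hnrnpa2b1), so that Hnrnpu lay inside both ranges. The medians were 60.55% and 1.02, against 56.1% and 0.627 over all protein-coding genes, of which 51.2% were CpG-rich. Of the 32 bp words in the 5001 bp around the most upstream Hnrnpu TSS, 92.9% are unique in the reference genome, and within 500 bp of the TSS 99.9% are. The marked genes ranged from 68.6% (Hnrnpa1) to 98.4% (Hnrnpd) over the 5001 bp, and Hnrnpu lay within this range. Why the Hnrnpu promoter has no peak was not tested.

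The 150 bp just upstream of the most upstream Hnrnpu TSS (chr1:178337798-178337947, minus strand, GRCm38) are shown since they are the promoter sequence that lacks a peak. Capitals mark the same motifs as above, and here they are 3 matches to GGGCGG, of which a pair overlaps. The stretch has a GC content of 75.3% and 23 CpG dinucleotides and touches no annotated exon.
Hnrnpu: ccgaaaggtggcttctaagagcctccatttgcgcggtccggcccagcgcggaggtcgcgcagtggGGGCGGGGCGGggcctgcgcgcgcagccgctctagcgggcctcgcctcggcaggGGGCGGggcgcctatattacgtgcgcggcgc

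The RefSeq promoter windows of 300 bp (GRCm38), most of each lying upstream of the gene start, were searched for the 6 motifs on both strands. All 10 genes matched, with 14 windows. CCAAT was found for 7 of the 10 genes (Hnrnpa1, Hnrnpa2b1, Hnrnpa3, Hnrnpc, Hnrnpf, Hnrnpk and Hnrnpl), and 37.4% of all 32851 windows held it. TGACG was also found for 7 (Hnrnpa2b1, Hnrnpa3, Hnrnpc, Hnrnpf, Hnrnpk, Hnrnpl and Hnrnpm), against 20.8% of all windows. GGGCGG was found for 6, Hnrnpu among them, against 35.7%. CCGGAA was found for Hnrnpa2b1, Hnrnpd, Hnrnpf and Hnrnpu, against 14.9%. TATAAA was found for Hnrnpm (13.6% of all windows) and GCATGCG for Hnrnpl (3.58%). Hnrnpu and Hnrnpd held neither CCAAT nor TGACG. Some genes have several windows, so the shares of all windows are best set beside counts by window. Of the 14 windows, CCAAT was found in 9, TGACG in 8, GGGCGG in 8, CCGGAA in 7, and TATAAA and GCATGCG in 1 each. The shares are over all windows and not only those of CpG-rich promoters. These motifs are short, so the counts are descriptions and no factor's binding can be read from them.

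Of the genes related in function, 17 further hnRNP-like genes were examined, and 17 were marked in Scid.adh.2C2 and 16 in 230-238. Hnrnpll, the paralogue of Hnrnpl, was the gene marked in Scid.adh.2C2 only. Its peak was 18.0-fold enriched and 3592 bp wide, and in 230-238 the nearest peak lay 138838 bp away. The highest peaks of this list belonged to the poly(C)-binding protein gene Pcbp1 in Scid.adh.2C2, at 46.3-fold, and to Syncrip in 230-238, at 34.9-fold, above each of the 10 genes. The medians of the list were 30.6- and 23.2-fold, close to the 30.0- and 22.2-fold of the 10 genes.

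The serine/arginine-rich (SR) splicing factors, which often act against hnRNPs on the same exons, were marked for 9 of 11 genes in each line. Srsf1 and Srsf12 had a peak in neither, and both have CpG-rich promoters, which makes them the genes of these lists that were most like Hnrnpu in pattern. The ratio of observed to expected CpG was 1.07 for Srsf1, near the 1.05 of Hnrnpu. For Srsf12 it was 0.629, only just above the limit of 0.6. The nearest peak to Srsf1 lay 59160 bp away in Scid.adh.2C2 (34.3-fold) and 59042 bp away in 230-238 (12.2-fold). The stretch without peaks around Srsf1 was 727800 bp long in Scid.adh.2C2 and 505851 bp long in 230-238. It held 5 protein-coding starts (Ccdc182, Cuedc1, Mrps23, Srsf1 and Vezf1), 4 of them CpG-rich. The nearest peak to Srsf12 lay 37112 and 37229 bp away. Srsf10 had the highest peak of the list in both lines, at 39.6- and 29.2-fold.

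Of 24 core spliceosome genes, 22 were marked in Scid.adh.2C2 (91.7%, Wilson 95% interval 74.2% to 97.7%) and 24 in 230-238 (100%, 86.2% to 100%). U2af2, which encodes the large subunit of the U2 auxiliary factor that recognises the 3′ splice site, had the highest peak of this list in 230-238, at 36.2-fold, with rank 24 of 19604 and a width of 4774 bp. In Scid.adh.2C2 it had none, and the nearest peak lay 9860 bp away. This stretch of 27632 bp held the start of U2af2 alone, in contrast to that of Hnrnpu. Sf3a2, a subunit of the U2 particle, was 24.2-fold enriched in 230-238 and had no peak in Scid.adh.2C2, where the nearest lay 23293 bp away. The highest peak in Scid.adh.2C2 was that of Snrpd1, at 39.9-fold. All 30 of a list of broadly expressed genes were marked in both lines (Wilson 95% interval 88.6% to 100%), from 13.7- to 49.7-fold (Pfn1) in Scid.adh.2C2 and from 10.2- to 36.5-fold (Hspa8) in 230-238. The lowest in Scid.adh.2C2 was the cytoskeletal actin gene Actb, named after its values were seen, whose single peak of 472 bp held none of its 9 TSSs. In 230-238 Actb had 2 peaks, the highest at 26.4-fold, with 2 TSSs inside. The intervals cover counting error only.

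**Figure D4:**
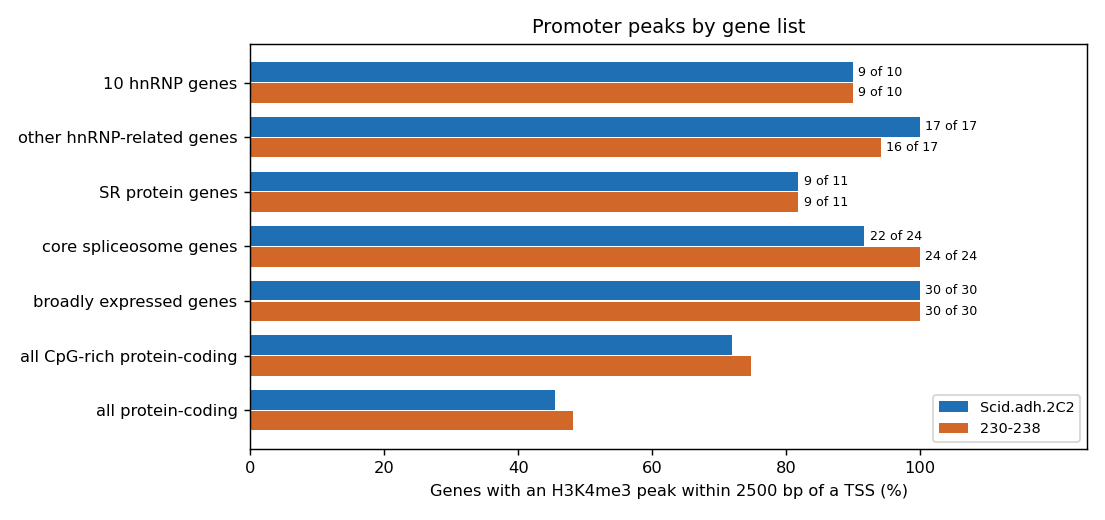
The bars give the percentage of genes with an H3K4me3 peak within 2500 bp of a TSS in Scid.adh.2C2 and 230-238, for the 10 hnRNP genes, 4 lists of related or broadly expressed genes, and all protein-coding genes with and without the requirement of a CpG-rich promoter. The hnRNP genes stand at 9 of 10 in both lines, the SR protein genes at 9 of 11, and all CpG-rich protein-coding genes at 71.9% and 74.7%.

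The case of U2af2, a promoter at the top of 1 list and without a peak in the other, was then counted over all CpG-rich protein-coding genes, after the values had been seen. The genes marked in a line were divided into 10 groups of equal size by the fold enrichment of their highest peak. Of the 809 strongest in Scid.adh.2C2, 22 had no peak in 230-238 (2.72%), and of the 808 weakest, 17.7% had none. Of the 840 strongest in 230-238, 58 had no peak in Scid.adh.2C2 (6.90%), against 4.65% of the second strongest group and 26.5% of the weakest. No test of the difference between these groups was made. None of the 9 marked hnRNP genes could be in this situation, since the same 9 were marked in both lines.

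**Figure D5:**
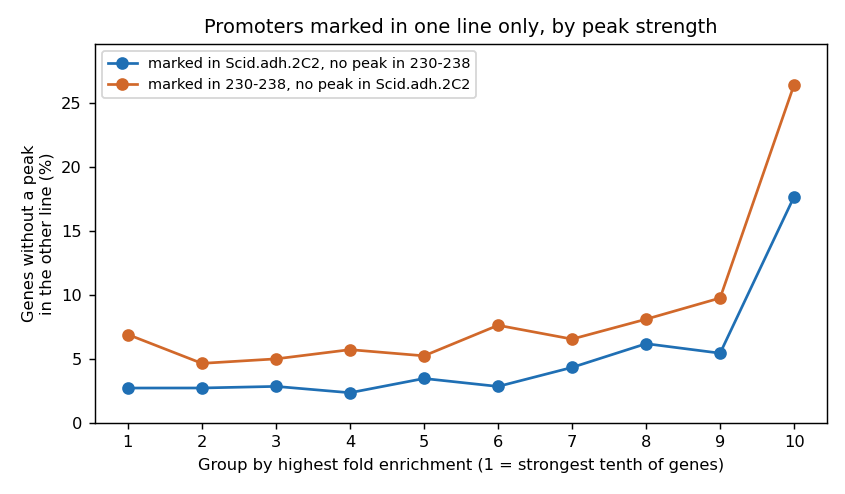
The percentage of CpG-rich protein-coding genes that are marked in 1 line and have no peak in the other is plotted for 10 groups by the highest fold enrichment, from the strongest (1) to the weakest (10). For genes marked in Scid.adh.2C2 the share is 2.72% in the strongest group, 2.35% in the fourth, the lowest, and 17.7% in the weakest, and for genes marked in 230-238 it is 6.90% in the strongest, 4.65% in the second and 26.5% in the weakest.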

How the data were processed

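H3K4me3 ChIP-seq of Scid.adh.2C2 and 230-238 was used, with 2 ChIP libraries and 1 input library per line, grouped by the sample labels. The authors trimmed reads with Trim Galore 0.6.7, mapped them to mm10 (GRCm38) with Bowtie2 2.4.4, called narrow peaks with MACS2 2.2.7.1 at a q-value of 0.05 against input, and kept the optimal set at an IDR of 0.05. The deposited score, the deposited fold enrichment (a ratio), and the deposited −log10 p-values and −log10 q-values are the authors' values and were not rescaled. Peak splitting and the IDR filter decide whether a domain counts as 1 peak, several or none. Depth and replicate values are unknown.

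TSSs came from GENCODE M21 on GRCm38. Every chromosome of the peaks matched that reference in name and held every peak. Promoters were 2500 bp either side of each TSS, and an overlap of 1 bp counted. CpG-rich promoters had a GC content of at least 50% and an observed to expected CpG ratio of at least 0.6 in 1000 bp around a TSS. Promoter windows for motifs are those of RefSeq for GRCm38. Uniqueness of 32 bp words was counted over the chromosomes and unplaced sequences of C57BL/6J. On simulated peaks, the overlap step was tested and returned the simulated state of every promoter. No test across genes was made, since the genes and lists were chosen with earlier results of these data known. All 10 genes are named with all values, and of the other lists the genes with a peak in 1 line or neither, the highest in each line, and neighbouring starts. Computation used pandas 2.3.3 and numpy 2.4.6 under Python 3.11.15, and plots used matplotlib 3.10.9.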

Additional observations from a re-analysis of the deposited data

How the results depend on the processing

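The counts of marked hnRNP genes stayed at 9 of 10 in both lines under a window of 1000 or 5000 bp, 1 TSS per gene, TSSs of protein-coding transcripts only, peaks of at least 10-fold, peaks with a score of 1000, lists of equal length and the summit inside the window, and Hnrnpu had no peak under any of these. Of 123 recomputed counts, 120 stayed within 1.5 times the reported value. The other 3 came from a stricter definition of CpG-rich promoters (GC of at least 55% and a CpG ratio of at least 0.75), which by construction holds fewer genes, with 5158 marked in Scid.adh.2C2, 5328 in 230-238 and 1276 in neither, against 8082, 8395 and 2438. Of 162 recomputed highest fold values, 6 changed to another peak, 1 of them by over 1.5 times (Hnrnpf in Scid.adh.2C2), and the widths changed with them, 3 by over 1.5 times. With the highest −log10 q in place of the highest fold, Hnrnpa3 was 26.0-fold in Scid.adh.2C2 with a width of 2644 bp in place of 1174 bp, and Hnrnpl was 31.5-fold (3103 bp in place of 2063 bp) in Scid.adh.2C2 and 26.2-fold in 230-238. With the most upstream TSS only, Hnrnpf was 22.4-fold in Scid.adh.2C2 (1271 bp in place of 3729 bp) and 20.3-fold in 230-238, and Hnrnpl 26.2-fold in 230-238. No paired analysis was possible because each line has 1 combined list without values per replicate. For the same reason no replicate could be left out. Depth is unknown and 1 list per line was analysed here, so a promoter without a peak cannot be told apart from a marked promoter, weak or strong, whose peak is not in that list.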
